A study of Homo sapiens
Mus musculus and Homo sapiens with 12 samples.

Results

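Human fibroblasts kept in the same culture as mouse embryonic stem cells, with no fusion of membranes, were compared with unfused human fibroblasts. The comparison took 4 of the 12 samples of the series, namely 2 co-culture libraries and unfused fibroblast replicates 1 and 2. The human cells were MRC5, an established line of lung fibroblasts, and the mouse cells were D3, an embryonic stem cell line. The labels describe each co-culture sample as a mixture of both cell types taken in one RNA harvest, while the extraction text shared by all samples mentions sorting, worded for heterokaryons. Only human coding transcripts were read here. No group carried a labelled drug treatment or engineered allele, and no culture time was labelled for the co-culture or the fibroblasts. The other samples were 2 libraries each of heterokaryons (fused mouse stem cells and human fibroblasts) at days 1, 2 and 3, 1 homokaryon of fibroblasts fused with fibroblasts, and unfused fibroblast replicate 3, which listed no human transcript and was left out. The labels do not say that the replicates came from separate cultures, so each p-value reflects no more than the spread among these libraries, which may be technical.

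Fibroblasts make the collagen scaffold of connective tissue and, when stimulated, secrete cytokines, growth factors and enzymes that digest or protect the matrix. Interleukin 1 and related signals act through the transcription factor NFkB, which raises adhesion molecules, chemokines and the mitochondrial superoxide dismutase. TGF beta works in another direction, driving contractile proteins and inhibitors of proteolysis. Mouse embryonic stem cells are usually held in culture with fibroblasts as feeder cells or with the cytokine LIF, so the fibroblast side of such a culture is itself a source of secreted factors.

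Each table held a length-normalised expression value per RefSeq transcript in the form of RPKM (reads scaled to transcript length and to the size of the library), and the transcripts of a gene were summed. Every table stopped part way through the accession order, and fibroblast replicate 1 stopped earliest. Of 18804 coding genes, 2425 were fully covered by both co-culture and both fibroblast libraries after 83 genes beside unnamed accessions were set aside. A wider set of 5024 genes was covered when fibroblast replicate 2 was the only fibroblast library. Unlisted genes ahead of a table's end were taken as 0. Such a 0 can be a failed estimate: of 51 ribosomal protein genes covered by all 4 libraries, which every cell uses, 16 were listed at 0 in each of them, so a gene at 0 is only described as listed at 0. Of the 2425 genes, 1555 and 1554 stood at 0 in co-culture replicates 1 and 2, against 1230 and 1307 in fibroblast replicates 1 and 2. Among the 2212 of these genes with 1 accession, the lowest 5% of listed values lay under 0.155 and 0.180 in co-culture and under 0.0242 and 0.0432 in the fibroblasts. The read totals are not given in the sources used here. A part of the low values lay on steps of whole reads, for 21.6% of 273 genes in co-culture and 17.3% of 445 in the fibroblasts. Over a range of assumed depth ratios the median shares were 1.47% and 2.36%. The steps put co-culture replicate 2 at 1.04 times the depth of replicate 1 and fibroblast replicate 2 at 0.862 times that of replicate 1. The steps did not settle the ratio between the groups, and the part of depth in the results below was not tested.

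The fibroblast label was checked against its markers. COL1A1 stood at 2419 and 2428 in co-culture and at 2295 and 2456 in fibroblast replicates 1 and 2, and VIM at 2185 and 2087 in co-culture and 3319 in fibroblast replicate 2. LUM, a matrix proteoglycan often used as a fibroblast marker, was under 1 in both co-culture libraries and fibroblast replicate 2. Only 5 of the 13 listed pluripotent stem cell markers were covered, and the others could not be read. Of the 5, DPPA5, SOX2, UTF1 and FGF4 were at 0 in both co-culture libraries, and CRIPTO was at 0 and 0.427. In fibroblast replicate 2, 4 of the 5 were at 0 as well. Of all 5024 genes in the wider set, 50.9% and 50.8% were at 0 in co-culture replicates 1 and 2. The share of mouse reads assigned to human transcripts was not tested. The endothelial genes PECAM1, CDH5 and KDR, the blood genes HBA1, HBB and CD34 and the epithelial gene EPCAM were also at 0 in both co-culture libraries, while KRT8 was at 0 and 12.4. Not every marker of these types was unlisted. Of 5 covered endothelial markers, 1 was at 1 or more in both co-culture libraries and in fibroblast replicate 2. For 4 covered blood markers the numbers at 1 or more were 1, 0 and 1 in co-culture replicates 1 and 2 and fibroblast replicate 2. For 4 covered epithelial markers they were 1, 3 and 1. In bulk RNA of this kind, fewer cells of a type and less RNA per cell cannot be told apart.

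The first question was which human genes differed between co-cultured and unfused fibroblasts when both fibroblast libraries could be used. Genes with a value of 1 or more in at least 2 of the 4 libraries were tested, which left 682, on log2(value + 1) with limma, a linear model whose spread was shared across 10 libraries of 5 groups. Genes with an adjusted p (Benjamini-Hochberg) below 0.05 count as called, and fold changes on this scale understate the change of low genes. Co-culture differed in 22 of the 682 genes (3.23%), with 14 higher (2.05%) and 8 lower (1.17%), and 115 genes had an unadjusted p under 0.05. The median difference over all 682 genes was 0.04. Libraries of the 2 groups did not overlap for 237 genes that were higher (34.8%) and 190 that were lower (27.9%) in co-culture.

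**Figure D1:**
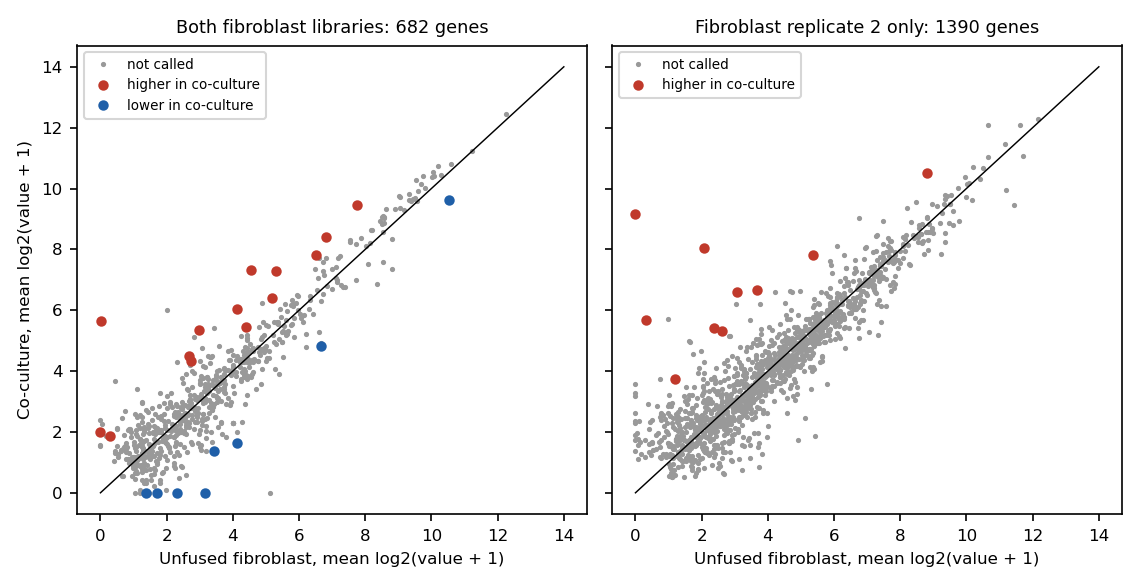
Mean log2(value + 1) of each tested gene in unfused fibroblasts (horizontal axis) and in co-culture (vertical axis), for the 682 genes with both fibroblast libraries (left) and the 1390 further genes with fibroblast replicate 2 only (right). Points are genes, filled coloured points are called genes, and the line marks equal values. Most genes lie along the line, and called genes lie away from it on both sides at left and only above it at right.

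The balance between the directions depended on scaling. The upper quartile of the values above 0 was 16.6 and 16.1 in co-culture and 8.22 and 9.24 in the fibroblasts. Co-culture listed fewer values above 0, while genes at 1 or more numbered 662 and 662 in co-culture and 637 and 643 in the fibroblasts. How far the number of low values moved the quartile was not tested. Dividing by this quartile moved the median of the 682 genes to -0.71 and gave 4 higher and 48 lower genes. Scaling every library to one sum gave 7 higher and 10 lower, and quantile normalization gave 11 higher and 12 lower. Leaving out any 1 of the 4 libraries, with the same 682 genes tested, left IL1B as the only gene called, and its adjusted p was at most 0.000901. With the filter recomputed on the remaining libraries, 0 genes were called without co-culture replicate 1 or 2 (77 and 80 at an unadjusted p under 0.05), but IL1B could then not pass the filter and was not tested. With the fits that kept all libraries, IL1B and HGF stayed called in 13 of 13 alternatives, COL7A1 and ICAM1 in 12 and TIMP3 and OXTR in 11. SOD2 and GJA1 stayed called in 5 of the 13, ACVRL1 in 4, TUBB2A in 7, IGFBP5 in 8, and ACTN1 and ARSI in 9. Each of these calls, and that of TIMP3, ended when libraries were scaled to one sum.

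Inflammatory and secreted proteins led the genes that rose. IL1B, the cytokine interleukin 1 beta, stood at 51.2 and 47.0 in co-culture and at 0.043 and 0 in fibroblast replicates 1 and 2. It was thus close to unlisted in both fibroblast libraries, with a difference of 5.62 on the log2 scale (SE 0.29, adjusted p = 2.18e-05). HGF, the growth factor that binds the receptor MET, was at 127 and 198 in co-culture and at 22.5 and 22.8 in the fibroblasts, 7.18-fold apart in the means (log2 difference 2.75, SE 0.47, adjusted p = 0.0296). ICAM1, a surface protein that leukocyte integrins hold on to, was at 39.3 and 40.5 against 6.66 and 7.24, a 5.74-fold gap (adjusted p = 0.0296). SOD2, the mitochondrial superoxide dismutase, was at 73.9 and 96.6 against 36.0 and 35.1 (2.40-fold, adjusted p = 0.0460). In each of these genes the groups did not overlap, and the spread within a group was largest for HGF in co-culture.

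Genes of the matrix, cell contacts and growth factor binding rose as well. COL7A1, the collagen of anchoring fibrils, was at 56.6 and 73.5 in co-culture and at 16.5 and 16.8 in the fibroblasts (log2 difference 1.89, SE 0.25, adjusted p = 0.0196). IGFBP5, which binds insulin-like growth factors, was at 692 and 718 against 219.7 and 212 (3.26-fold, adjusted p = 0.0296). TIMP3, an inhibitor of metalloproteinases that stays bound to the matrix, was at 342 and 339 against 116 and 107 (3.06-fold, adjusted p = 0.0296). The IGFBP5 and TIMP3 values lay close together within each group, while the COL7A1 values lay further apart in co-culture.

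GJA1, the gap junction protein connexin 43, was at 149 and 159 in co-culture and at 39.3 and 38.3 in the fibroblasts (log2 difference 1.96, SE 0.42, adjusted p = 0.0462). ACVRL1, a receptor of the TGF beta family that responds to certain BMPs, was at 18.9 and 24.0 against 5.71 and 4.99 (4.01-fold, adjusted p = 0.0462). ACTN1, which cross-links actin filaments, was at 202 and 254 against 91.6 and 89.0 (2.53-fold, adjusted p = 0.0296). The remaining higher genes had lower levels or less familiar roles. ARSI, of the sulfatase family, was at 19.1 and 19.4 against 5.79 and 5.56 (3.39-fold, adjusted p = 0.0296). IL13RA2, a decoy receptor for interleukin 13, was at 3.19 and 2.15 against 0.094 and 0.384, and FAM156B at 3.04 and 2.95 in co-culture was listed at 0 in both fibroblast libraries. FAM156B has a near-identical neighbour copy, so its reads may be split, and both of these genes are named because they were called, after their values were seen.

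Of the 8 genes that fell, 4 were listed at 0 in both co-culture libraries, which leaves no fold to give. Among these, ELN, which encodes elastin, was at 8.02 and 7.74 in fibroblast replicates 1 and 2 (adjusted p = 0.0296). DPYD, an enzyme of pyrimidine breakdown, was at 2.26 and 2.23 there (adjusted p = 0.0427), and HMGXB4, an HMG-box protein, at 1.62 and 1.54 (adjusted p = 0.0296). DPYD and HMGXB4 are likewise named after their values were seen, because they were called. OXTR, the oxytocin receptor, was at 1.37 and 3.02 in co-culture against 16.5 and 16.6 (log2 difference -2.51, SE 0.49, adjusted p = 0.0338).

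TOP2A, the topoisomerase that untangles chromosomes in dividing cells, was at 1.49 and 1.71 in co-culture and at 11.2 and 8.54 in the fibroblasts (log2 difference -2.05, SE 0.38, adjusted p = 0.0296). TUBB2A, a beta tubulin, was at 19.9 and 36.8 against 90.7 and 111 (log2 difference -1.85, SE 0.38, adjusted p = 0.0460), and its close relative TUBB2B could share its reads. For both genes the gap between the groups exceeded the gap within either of them.

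**Figure D2:**
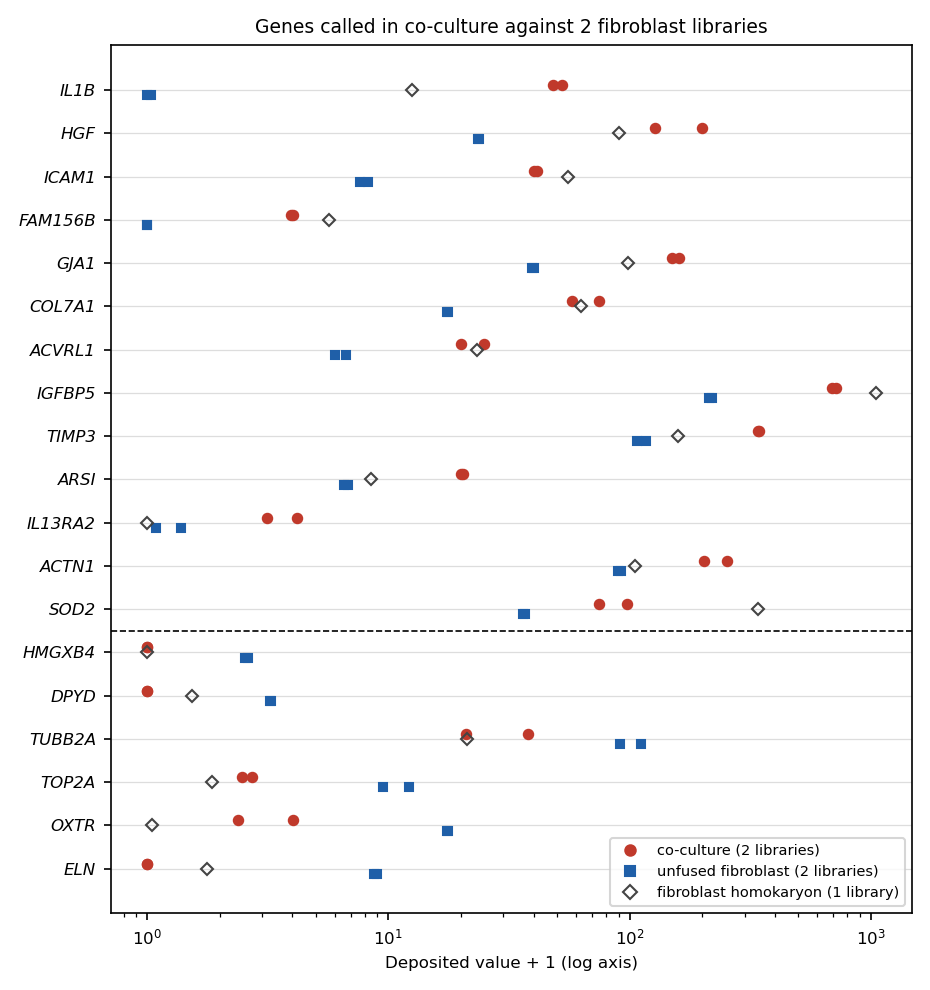
Values of 19 of the 22 called genes in each library, as deposited value plus 1 on a log axis: circles are the 2 co-culture libraries, squares the 2 unfused fibroblast libraries, and open diamonds the single homokaryon library, which took no part in the test. Genes above the dashed line were higher in co-culture and genes under it lower, and circles and squares do not overlap for any gene drawn.

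The second question was what the wider set added, with 2 co-culture libraries against fibroblast replicate 2 alone. Of 2030 genes tested, 11 were called (0.542%), all higher in co-culture, with 165 at an unadjusted p under 0.05. The direction is limited by the filter, since a gene at 1 or more in the only fibroblast library and under 1 in both co-culture libraries could not pass, while the opposite pattern could. A filter of 1 library gave 9 higher genes and 1 lower, the keratin-associated KRTAP2-3 (named after its value was seen), and no filter gave 10 higher and 41 lower. IL1B was one of them, and the other 10 came from the 1390 genes not tested before (0.719%). Among those 1390 genes, both co-culture libraries lay above fibroblast replicate 2 for 496 (35.7%) and under it for 520 (37.4%). The single fibroblast library was assumed to vary like the other groups, and with the same genes tested 2 genes, IL1B and EIF4A1, were called without co-culture replicate 1 and without replicate 2. With the filter recomputed 0 genes were called (76 and 84 at an unadjusted p under 0.05), but IL1B, EIF4A1 and UBE2L3 could then not pass it and were not tested.

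Of the 10 further genes, 3 encode secreted growth factors or cytokines. AREG, the EGF receptor ligand amphiregulin, was at 232 and 297 in co-culture and at 3.23 in fibroblast replicate 2 (log2 difference 5.96, SE 0.82, adjusted p = 0.0206). LIF, the IL6 family cytokine that keeps mouse embryonic stem cells undifferentiated, was at 91.1 and 102 against 7.36 (log2 difference 3.55, SE 0.40, adjusted p = 0.0085). VEGFA, the growth factor of blood vessels, was at 113 and 90.5 against 11.8 (log2 difference 2.99, SE 0.40, adjusted p = 0.0190). In each of these the gap to the fibroblast library exceeded the gap between the co-culture libraries.

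PLAU, the urokinase-type plasminogen activator, was at 1529.7 and 1360.2 in co-culture against 447 (3.23-fold, adjusted p = 0.0234). CRABP2, which carries retinoic acid to its nuclear receptors, was at 35.6 and 41.5 against 5.15 (7.49-fold, adjusted p = 0.0307). NPTX1, a secreted pentraxin known from synapses, was at 227 and 219.9 against 40.2 (5.56-fold, adjusted p = 0.0232). ATF3, a transcription factor induced by stress, varied more between replicates at 9.30 and 16.5 against 1.29 (adjusted p = 0.0476), and stayed called in only 4 of 12 alternatives that kept all libraries. VDAC2, a channel of the outer mitochondrial membrane, was at 40.6 and 43.3 against 4.17 (adjusted p = 0.0085).

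Both of the remaining calls rested on values near 0 in the fibroblast library. UBE2L3, an enzyme that conjugates ubiquitin, was at 63.5 and 39.6 in co-culture against 0.240, and EIF4A1, the RNA helicase of translation initiation, at 601 and 537 was listed at 0 in fibroblast replicate 2. EIF4A1 was at 316 or more in the 9 other libraries that covered it, and a 0 in such a gene can be a failed estimate. When a gene was represented by its most abundant transcript, UBE2L3 (adjusted p = 0.114), VDAC2 (adjusted p = 0.0782), VEGFA (adjusted p = 0.321) and ATF3 were no longer called. H2AZ1, a histone variant, missed the threshold at 53.8 and 43.3 against 170 (log2 difference -1.80, adjusted p = 0.0535).

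**Figure D3:**
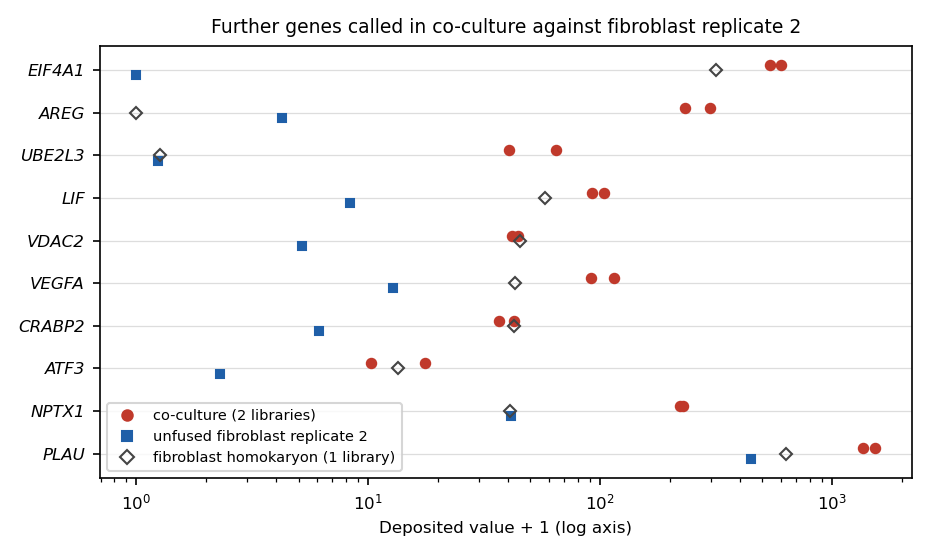
Values of the 10 further genes called when fibroblast replicate 2 was the only fibroblast library, as deposited value plus 1 on a log axis: circles are the 2 co-culture libraries, the square is fibroblast replicate 2, and the open diamond is the homokaryon library. Every circle lies to the right of its square, and EIF4A1 and UBE2L3 have squares at or near the left edge, which marks 0.

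Gene groups were described over both sets together, 2072 genes in all, whose median difference was -0.02. Both co-culture libraries lay above every fibroblast library used for 35.4% of them and under for 34.3%. In the groups below, a member whose libraries did not overlap is called separate. Members that passed the filter through co-culture alone, with every fibroblast library under 1, had to be higher. Those that passed through the fibroblasts alone, with both co-culture libraries under 1, had to be lower. The counts and medians are descriptions of the members tested. Dividing by the upper quartile moved the median of all 2072 genes to -0.55, scaling to one sum to -0.17 and quantile normalization to -0.09. List medians under each scaling are read against that shift. A list median can thus turn sign and still lie above that of all genes.

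Interleukins, chemokines and their receptors had 8 tested members of 39 listed, 7 of them separate and higher and 1 lower, with a median of 1.80 and IL1B as the only call. Of these, 5 (IL1B, CXCL8, PTGS2, CXCL1 and CXCL3) passed the filter through co-culture alone, and the 3 others, of which 2 were higher and 1 lower, had a median of 0.59. CXCL8, a chemokine for neutrophils, was at 16.3 and 8.58 in co-culture and at 0.226 and 0.526 in the fibroblasts (adjusted p = 0.208). IL1R1, the signalling receptor of interleukin 1, was at 30.7 and 22.3 against 6.96 and 7.95 (adjusted p = 0.0757). CXCL1 and CXCL3 were listed at 0 in fibroblast replicate 2 and at 3.20 and 2.36, and 2.29 and 6.25, in co-culture. The chemokine CCL5 had the opposite pattern, at 0.0894 and 0.459 against 6.26, and was not tested. CCL2, a chemokine for monocytes, was the separate lower member at 5.44 and 7.56 against 8.11.

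The NFkB and adhesion group had 10 tested members of 24, of which ICAM1 and SOD2 rose, and 7 were separate and higher and 1 lower. The median was 0.40, or -0.11 after upper quartile scaling, where that of all genes was -0.55. TNFRSF1B, a receptor of tumour necrosis factor, was at 14.4 and 22.4 against 5.34 and 5.66 (adjusted p = 0.202). The NFkB subunit gene NFKB1 was at 5.96 and 6.84 against 10.0 in fibroblast replicate 2. Of the IL6, JAK and STAT genes, 13 of 28 were tested, LIF rose, 8 were separate and higher and 2 lower, and the median was 0.75. IL6 passed the filter through co-culture alone, and without it 7 of 12 were higher and 2 lower, with a median of 0.69. IL6 itself was at 5.58 and 5.36 in co-culture and at 0.933 and 0.448 in the fibroblasts (adjusted p = 0.241), and OSMR, the receptor of oncostatin M, at 56.3 and 48.0 against 23.0. JAK1, the kinase that serves these receptors, was at 23.5 and 27.9 against 32.3, on the lower side.

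Antigen presentation genes lay higher without a call. All 5 tested genes of MHC class I presentation, of 17 listed, were separate and higher, with a median of 0.71. TAP1, a chain of the peptide transporter, was at 28.3 and 34.9 against 21.3 and 19.5 in fibroblast replicates 1 and 2. The interferon response list had 10 tested members with 5 separate and higher and 3 lower and no call. Its median was 0.53, or -0.05 after upper quartile scaling, where that of all genes was -0.55. IRF1 was at 19.1 and 18.4 against 7.72, while IFIT1, an antiviral protein, was at 1.86 and 0 against 2.24.

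Growth factors and their carriers showed members in both directions. The 4 tested genes of the EGF receptor ligand list, of 14, were all separate and higher with a median of 1.13, or 0.39 without the 1 that passed the filter through co-culture alone, and AREG was the call. EREG, a relative of AREG, was at 3.83 and 4.61 against 0.419, whereas HBEGF, another ligand of that receptor, was at 12.5 and 13.4 against 11.8. Of the secreted growth factors and hormones 12 were tested, HGF and VEGFA rose, and 7 were separate and higher and 5 lower. The median was 0.42, or -0.04 after upper quartile scaling, where that of all genes was -0.55. Without the 1 that passed the filter through co-culture alone, 6 of 11 were higher and 5 lower. STC1, the hormone stanniocalcin, was at 516 and 523 against 106 (adjusted p = 0.512), and FGF7, a factor for epithelial cells, at 4.88 and 5.11 against 0.709. IGF2 lay lower, at 24.7 and 32.6 against 39.5 and 37.4.

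Receptors for growth factors had 7 tested members and no call, 3 separate and higher and 4 lower. Of these, 1 passed the filter through the fibroblasts alone, and without it 3 were higher and 3 lower. IGF2R, which carries IGF2 to lysosomes, was at 31.8 and 44.6 in co-culture against 93.7 and 96.8 (adjusted p = 0.0757). MET, the receptor of HGF, was at 2.05 and 4.37 against 8.20 and 8.02 (adjusted p = 0.241). Its ligand HGF was thus higher and the receptor lower in the same libraries, the latter short of the threshold. Of the 5 tested IGF binding proteins, IGFBP5 rose, and IGFBP6 at 235 and 292 against 121 and IGFBP4 at 775 and 742 against 352 were separate and higher. IGFBP7 lay lower at 144.6 and 74.97 against 222.

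Matrix genes as a group were near the centre of all genes. Of 38 listed fibroblast matrix genes 19 were tested and none was called, and 9 were separate and higher and 4 lower. The median was 0.11, turning to -0.08 when libraries were scaled to one sum and to -0.57 after upper quartile scaling. Medians of all genes tested were then -0.17 and -0.55. TGFBI, a matrix protein induced by TGF beta, was at 1236 and 1241 against 742 and 748 (adjusted p = 0.0852). COL1A2 was at 1358 and 1415 against 1221 and 1304, and COL3A1 at 199 and 239 against 154 and 147. LOX, the enzyme that cross-links collagen and elastin, was at 24.8 and 27.5 against 79.4 in fibroblast replicate 2 (adjusted p = 0.334), and SPARC at 510 and 461 against 871.

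Basement membrane genes had 11 tested members of 24, with COL7A1 as the call and 6 separate and higher against 2 lower. The laminin chain genes split: LAMA4 was at 37.9 and 42.7 against 16.4 and LAMB1 at 163 and 167 against 81.8, while LAMC1 was at 109 and 109 against 142. Elastic fibre and microfibril genes had 6 tested members, 3 separate in each direction, and ELN fell. ELN passed the filter through the fibroblasts alone, and without it 3 were higher and 2 lower. FBN1, the main fibrillin, was at 43.4 and 53.7 against 69.0 and 68.6 (adjusted p = 0.560), and LTBP4, which holds latent TGF beta, was on the other side at 31.5 and 33.1 against 11.5. Of 12 tested integrin genes, none was called, and ITGA6, a laminin receptor chain, was at 12.7 and 15.0 against 42.0 and 40.3 (adjusted p = 0.178).

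Proteases and inhibitors of the matrix had 13 tested members of 32, of which PLAU and TIMP3 rose and 1 fell, with 8 separate and higher and 4 lower. Leaving out the 1 that passed the filter through co-culture alone, 7 of 12 were higher and 4 lower. PLAUR, the receptor of the activator, was at 140 and 139 against 227 in fibroblast replicate 2 (adjusted p = 0.900). TIMP1, another inhibitor of metalloproteinases, was among the most abundant messages at 4556 and 4171 against 1607 (adjusted p = 0.407). The collagenase MMP1 was at 371 and 296 against 199, and MMP10 at 4.99 and 4.36 against 0.666. The group's median was 0.47, or -0.03 after upper quartile scaling, where that of all genes was -0.55.

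Contractile genes lay lower. Of 9 tested members of the smooth muscle contractile list of 23, 7 were separate and lower, the median was -0.47, and no member fell past the threshold, while ACTN1 rose. TAGLN, an actin-binding protein of smooth muscle, was at 985 and 977 in co-culture against 2324 in fibroblast replicate 2 (adjusted p = 0.466). ACTA2, the smooth muscle actin, was at 66.0 and 73.9 against 169.7 (adjusted p = 0.334), and TPM1, a tropomyosin, at 206 and 180 against 361 and 382 in fibroblast replicates 1 and 2 (adjusted p = 0.349). Actin genes resemble each other, and ACTG1 gave 265 and 1872 in the 2 co-culture libraries against 2754, so reads of this family may be shared.

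In the TGF beta and BMP list, 14 of 44 genes were tested, ACVRL1 rose, and 4 were separate and higher against 7 lower (median -0.24). Without the 1 that passed the filter through co-culture alone, 3 of 13 were higher and 7 lower (median -0.33). The targets CCN1, at 78.9 and 62.5 against 190, and CCN2, at 42.8 and 41.3 against 104, lay lower (adjusted p = 0.426 and 0.822). The ligand gene TGFB1 went the other way, at 181 and 149 against 86.5 and 90.5 (adjusted p = 0.224), and ENG, the coreceptor endoglin, was at 133 and 122 against 206 and 217 (adjusted p = 0.228). Among 11 tested WNT pathway genes 4 were separate in each direction. WNT5A, a ligand that acts largely without beta-catenin, was at 38.3 and 44.2 against 12.9, and the receptor FZD7 at 13.4 and 20.5 against 39.9.

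Cell division genes had the lowest median of the described groups. All 7 tested mitosis genes of 37 listed were separate and lower, with a median of -2.05, and TOP2A was the call. A further 4 listed genes, among them CCNA2 and CENPA, were under 1 in both co-culture libraries and above 1 in fibroblast replicate 2, and did not pass the filter. MKI67, the antigen Ki-67 of cycling cells, was at 1.99 and 2.77 in co-culture and 28.8 in fibroblast replicate 2 (log2 difference -3.15, adjusted p = 0.199). CKS2, a partner of cyclin-dependent kinases, was at 6.85 and 0.732 against 41.9, and BUB1B, a kinase of the spindle checkpoint, at 1.83 and 0 against 8.35. KIFC1, a mitotic kinesin outside the list and named after its value was seen, was at 5.31 and 3.76 against 33.8 (adjusted p = 0.0535). BIRC5 had the smallest gap, at 4.29 and 11.5 against 13.0.

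Genes of DNA replication also lay lower. Of 16 tested members of 42, 13 were separate and lower and none higher, the median was -0.72, and none was called. TK1, thymidine kinase, was at 7.37 and 16.0 against 54.7 in fibroblast replicate 2 (adjusted p = 0.334), and RRM2, a ribonucleotide reductase subunit, at 1.79 and 1.08 against 13.2 (adjusted p = 0.275). The helicase subunit gene MCM3 had a smaller gap at 20.4 and 19.5 against 29.5. Histone genes gave a median of -0.96 over 6 tested members, with 1 separate and higher and 3 lower. DNMT1, the maintenance DNA methyltransferase, was at 15.0 and 24.2 against 48.2 (adjusted p = 0.604). Its own list, chromatin and DNA methylation genes, had 9 separate and higher and 4 lower of 18, with a median of 0.15.

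**Figure D4:**
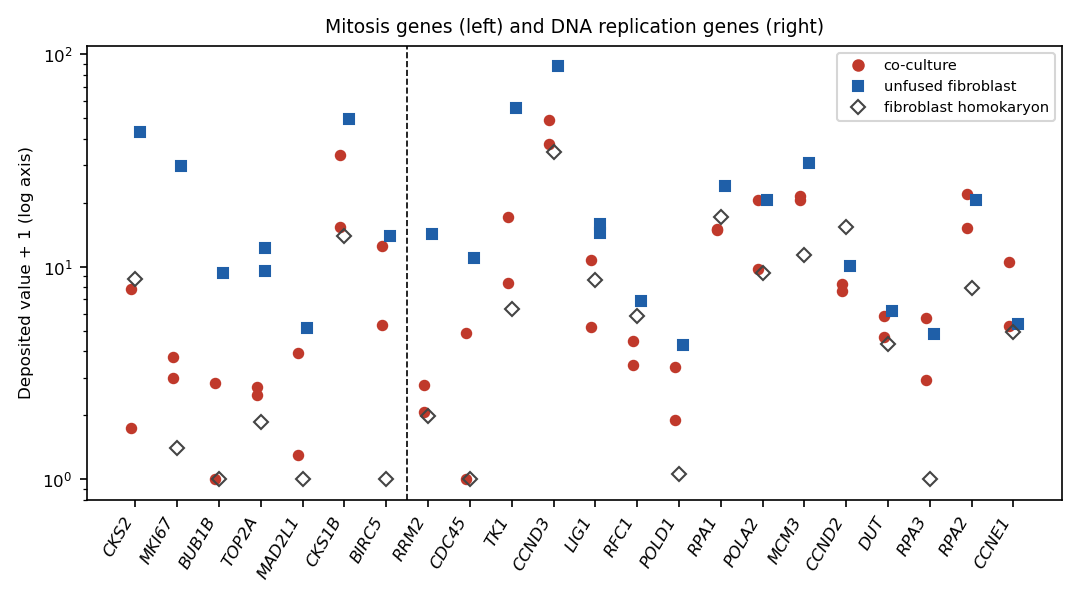
Values of the 7 mitosis genes (left of the dashed line) and 15 of the 16 tested DNA replication genes (right) in each library, as deposited value plus 1 on a log axis: circles are co-culture, squares unfused fibroblast (2 squares where both libraries covered the gene) and open diamonds the homokaryon. All mitosis squares lie above their circles, as for MKI67 with 28.8 against 1.99 and 2.77, while CCNE1, RPA2 and RPA3 at the right overlap.

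Cholesterol synthesis genes lay mostly higher in co-culture. Of 10 tested genes of 28, 9 were separate and higher and 1 lower, with a median of 1.31 and 0.66 after upper quartile scaling, and none was called. MVK, mevalonate kinase, was at 21.3 and 17.3 in co-culture against 6.71 and 7.49 in fibroblast replicates 1 and 2 (adjusted p = 0.196), and CYP51A1, lanosterol demethylase, at 26.6 and 27.7 against 10.9 and 11.3 (adjusted p = 0.244). TM7SF2, a sterol reductase, had the largest gap at 33.8 and 26.9 against 2.12 in fibroblast replicate 2 (adjusted p = 0.0895). LSS, lanosterol synthase, was the lower member at 40.3 and 40.2 against 57.9.

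Fatty acid genes gave 7 separate and higher and 2 lower members among 10 tested, none called. Their median was 0.49, or -0.33 after upper quartile scaling, where that of all genes was -0.55. CPT1A, the gate of fatty acids into mitochondria, was at 43.7 and 41.9 against 15.5, and ACADVL, which begins the oxidation of very long chains, at 358 and 343 against 155. The hypoxia and glycolysis list had 15 tested members, of which VEGFA rose, and 9 were separate and higher and 2 lower. ENO2, an enolase, was at 99.4 and 98.0 against 24.6, and HK2, a hexokinase, at 20.6 and 22.2 against 9.40 and 9.19. CA9, a carbonic anhydrase, was at 2.24 and 2.16 against 0.0964. It passed the filter through co-culture alone, and without it 8 of 14 were higher and 2 lower. Abundant glycolytic enzymes had small gaps, with GAPDH at 5246 and 4800 against 4628 and PGK1 at 143 and 111 against 145 and 137. The group's median of 0.12 turned to -0.37 after upper quartile scaling and to -0.01 with scaling to one sum. Medians of all genes tested were then -0.55 and -0.17.

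Oxidative phosphorylation genes were centred near 0, with 28 tested, 7 separate and higher, 10 lower, and a median of -0.04. Proteasome subunits leaned lower, with 14 of 25 tested members separate and lower, 3 higher and a median of -0.25, and PSMC3, an ATPase of the regulatory particle, at 83.4 and 77.6 against 163. Lysosomal genes had 28 tested members, 8 separate and higher and 11 lower. Heat shock and chaperone genes had 5 of 7 tested members separate and lower, among them HSPB1 at 459 and 439 against 777. None of these 4 groups had a call.

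Cytosolic ribosomal protein genes lay mostly higher in the deposited values, by small amounts. Of 77 listed, 45 were tested and none was called, 36 were separate and higher and 1 lower, and the median was 0.36. RPL3 was at 1707 and 1710.1 in co-culture and at 1164 and 1159 in the fibroblasts (adjusted p = 0.226), and RPS19 at 845 and 870 against 495 and 532 (adjusted p = 0.276). The median was -0.42 after upper quartile scaling, and 0.19 and 0.10 with scaling to one sum and quantile normalization. Medians of all genes tested were then -0.55, -0.17 and -0.09, so the list median stayed above that of all genes under each scaling. The lower member, RPS20, was listed at 0 in both co-culture libraries and at 32.2 and 35.0 in the fibroblasts, values far from those of its fellow subunits in either group. Ribosomal protein genes have many processed copies in the genome, so their reads may be shared.

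Receptors and channels of the cell surface had 24 tested members of 44, and 13 of them were in the first comparison. There 2 of the 13 fell, OXTR among them, beside 8 of all 682 genes (1.17%). Of these 24, 10 were separate and higher and 11 lower, with a median of -0.27. The filter was passed through co-culture alone by 2 and through the fibroblasts alone by 1. Among the other 21, 8 were higher and 10 lower. BDKRB2, the bradykinin B2 receptor, was at 46.6 and 36.7 against 9.29 and 10.2 (adjusted p = 0.0794). PIEZO1, a channel opened by stretch, was at 32.0 and 40.5 against 71.3 and 74.9 (adjusted p = 0.132). Among the retinoid and steroid genes CRABP2 rose, 7 of 11 tested were separate and higher and 2 lower, and RARA, a retinoic acid receptor, was at 10.7 and 16.1 against 7.69 and 6.67. Leaving out the 1 of that list that passed the filter through co-culture alone, 6 of 10 were higher and 2 lower.

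Immediate early genes, which answer stimulation within minutes, had 8 tested members, 5 separate and higher and 3 lower, with a median of 0.91 and ATF3 as the call. EGR1 was at 83.1 and 62.3 in co-culture against 7.21 in fibroblast replicate 2 (adjusted p = 0.253), and IER3 at 184 and 207 against 57.4 (adjusted p = 0.0805). KLF6, at 18.9 and 18.6 against 46.8, and JUN, at 19.7 and 23.6 against 35.8, lay lower. Of 4 tested p53 target and DNA damage genes, 3 were separate and higher, and DDB2, a DNA damage sensor, was at 32.6 and 36.1 against 18.0 and 17.8 (adjusted p = 0.139).

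**Figure D5:**
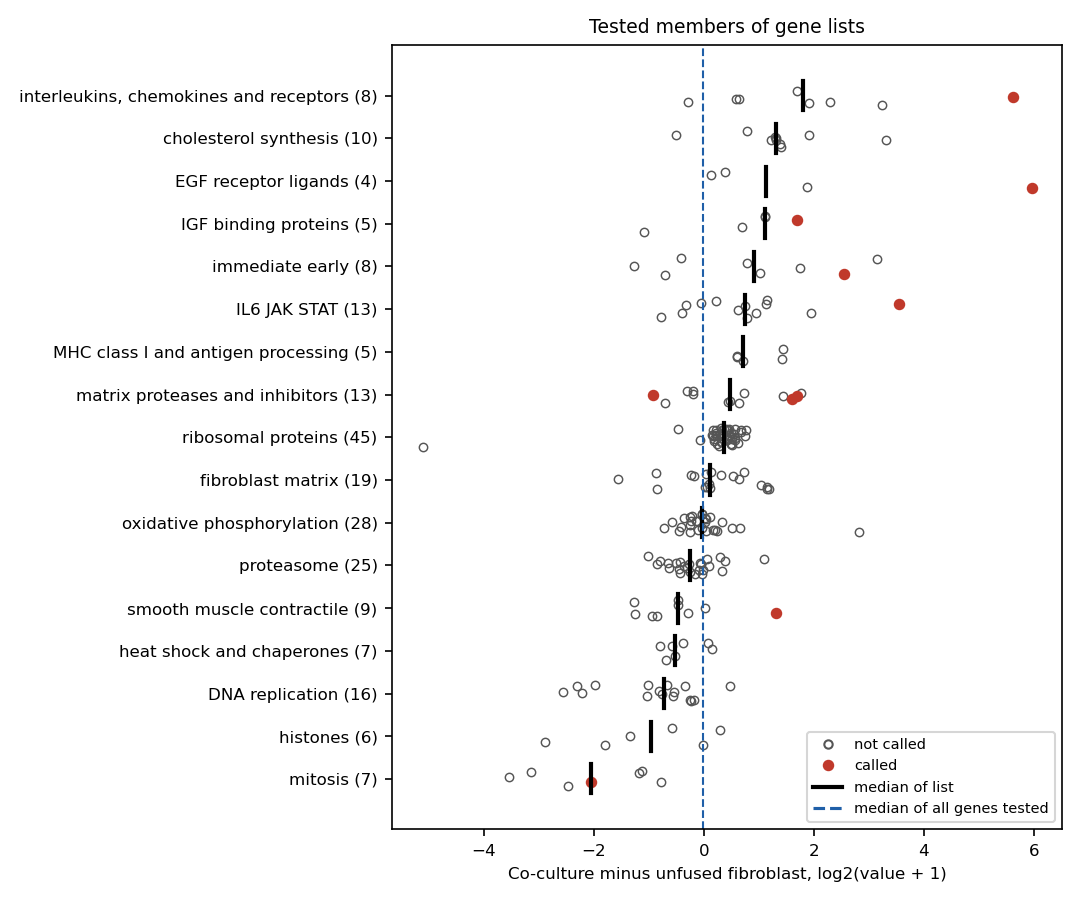
Co-culture minus unfused fibroblast on the log2(value + 1) scale for every tested member of 17 gene lists, with the number tested in brackets. Open circles are genes not called, filled circles called genes, black bars list medians and the dashed line the median of all 2072 genes (-0.02). List medians run from 1.80 for interleukins and chemokines to -2.05 for mitosis, as deposited and without scaling. Of the 8 interleukin and chemokine members, 5 passed the filter through co-culture alone and had to be higher. The other 3 had a median of 0.59.

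Remaining lists gave the following counts. Translation factors had 10 separate and higher and 8 lower of 19 tested, with EIF4A1 as the call. EIF4A1 passed the filter through co-culture alone, and without it 9 of 18 were higher and 8 lower. Antioxidant and iron genes had 12 and 7 of 27, with SOD2 as the call, and NQO1, a quinone reductase, was at 183 and 201 against 104 and 105 (adjusted p = 0.156). Nucleotide metabolism genes had 5 and 6 of 16, or 5 and 5 of 15 without the 1 that passed the filter through the fibroblasts alone. Among them IMPDH2, which commits purines to guanine nucleotides, was at 213 and 203 against 115 and 110 (adjusted p = 0.0794). Amino acid and one carbon genes had 3 and 5 of 12, chromatin and DNA methylation genes 9 and 4 of 18, proteoglycans 2 and 4 of 8, mesenchymal regulators 2 and 2 of 8, complement genes 3 and 0 of 5, NOTCH pathway genes 3 and 0 of 4, neuronal guidance and synapse genes 2 and 2 of 4 with NPTX1 as the call, and conserved abundant genes 4 and 7 of 13. NOTCH pathway genes had 2 and 0 of 3 without the 1 that passed the filter through co-culture alone. Of the mesenchymal regulators, FOXF1, a transcription factor of lung mesenchyme, was at 249 and 202 against 78.2 (adjusted p = 0.274).

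The called genes were also read in the homokaryon of fused fibroblasts, a single library that took no part in the tests. For 9 of the 14 genes that rose in the first comparison and for all 8 that fell, its log2 value lay nearer to the co-culture mean than to the fibroblast mean. The same held for 6 of the 10 further genes of the wider set. The share over all genes tested was not computed, so these counts have no background to be read against. SOD2 reached 340.1 and ICAM1 54.4 in the homokaryon, above both co-culture libraries. AREG was listed at 0 in the homokaryon and NPTX1 at 39.9, beside 3.23 and 40.2 in fibroblast replicate 2. MKI67 was at 0.407 and RRM2 at 0.984 there, under both co-culture libraries. In the heterokaryons HGF ran from 11.4 to 42.6 and NPTX1 from 22.4 to 31.8 over 6 libraries, under both co-culture libraries, while COL7A1 ran from 154 to 262, above both. These values are levels only, and no test was made between those groups and the co-culture.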

How the data were processed

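RNA-seq tables of 12 samples were read; 4 entered the comparisons and 10 libraries of the 5 replicated groups shared the estimate of spread. The authors deposited 1 value per RefSeq accession in the form of RPKM (inferred from the values). Per the submitters' processing notes the builds were hg19 and mm10; the aligner and quantifier are not given in the sources used here. The deposited values of unfused fibroblast replicate 3, a signal of at most 2 decimals on no human accession, were not used. Each table ends part way through the accession order, so a gene counted as covered only where all of its coding accessions preceded that end. Symbols came from RefSeq (GRCh38.p14), and 132 accessions were named with an older annotation.

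Gene sums were tested with limma 3.58.1 in R 4.3.3 (trend, pseudocount 1, value of at least 1 in 2 libraries, two-sided, Benjamini-Hochberg over all genes tested, called under 0.05), tested on simulated data first. Named genes were up to 12 rises and 12 falls per comparison among called genes in the upper 50 percent by level, the markers, and members of gene lists. The members and lists were chosen with earlier results of these data known. Replicate numbers did not pair the libraries: deviations correlated at -0.06 between co-culture and fibroblasts. Replicate libraries correlated at 0.933 in co-culture and 0.989 in fibroblasts over 682 genes. Alternatives tried were the pseudocount, the filter (also of 1 library), 3 scalings, a fit of the 2 groups alone, a replicate block, the most abundant transcript, genes beside unnamed accessions or covered in part, and leaving out each library. No chance test over gene lists was made. A few genes counted in the totals are not reported here by name.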

Additional observations from a re-analysis of the deposited data

Results flagged for a closer look

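Unfused fibroblast replicate 1 listed 12043 accessions outside the human table with values of at most 2 decimals, beside its 5389 human accessions. These values lie outside the comparisons above and were not analysed. Unfused fibroblast replicate 3 listed 8070 accessions of that kind and 0 human accessions. The co-culture libraries listed 96 and 77 such accessions and fibroblast replicate 2 listed 27. Both libraries were set apart by this signal in data the comparisons do not use, and its part in the early end of the human values in replicate 1 was not tested. No group had the 4 samples needed to look for a library far from its fellows.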

How the results depend on the processing

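Against 22 genes in the first comparison, limma called 52 after upper quartile scaling, 104 with only the 2 groups in the fit (of which 22 were the original genes), 47 with genes covered in part added, 14 with a filter of 1 library, and 5 with the replicate block, which assumes a pairing that the libraries did not show. The other alternatives that kept all libraries gave 17 to 30. Leaving out 1 library gave 0 to 1. In the wider set, against 11 genes, no filter on low values gave 51, the fit of the 2 groups alone 103, upper quartile scaling 6, the most abundant transcript 7 and the replicate block 9. Leaving out a co-culture library gave 0 to 2. With no filter the first comparison gave 9 higher and 13 lower. The filter of 1 library and the left-out fits on the same genes were chosen after seeing the data. Of 548 genes followed, the sign of the difference turned in 167 after upper quartile scaling, which moves the median of all genes down, in 49 with scaling to one sum and in 32 with quantile normalization. Of these, COL1A1 alone was called on either side, at -0.88 after upper quartile scaling. With 2 libraries against 2 or 1, the median standard error of a log2 difference was 0.49 and 0.66, so differences of that size were not detectable in most genes. Genes past the end of a table were not analysed here.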
